A study of Mus musculus with 36 samples.

Results

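Of 105005 accessible regions in the marrow catalogue, 3175 were called as a peak in every library of hematopoietic stem cells (HSCs), multipotent progenitors (MPP1 to MPP4), granulocyte-macrophage progenitors (GMPs) and common lymphoid progenitors (CLPs), and in none of the megakaryocyte-erythrocyte progenitor (MEP) libraries. Peaks of the 36 libraries were joined into a region wherever they shared 1 bp or more. The members were chosen by these calls, 32 of 32 outside MEPs and 0 of 4 in MEPs, so the calls themselves are a description and carry no test. They made up 28.5% of the 11159 regions called in all 32 non-MEP libraries, of which 5335 were also called in all 4 MEP libraries and 2649 in 1 to 3 of them. The number of members depended on the calling. It was 227 with the 9581 strongest peaks of every library, and 829 with a peak covering at least 50% of the region. Not being called means that no peak passed the caller's limit, and not that the chromatin was closed.

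ATAC-seq, which reads open chromatin through the insertions of a transposase, had been run on 8 fractions sorted from bone marrow of female C57BL/6 mice that were young (10 weeks) or aged (20 months), with no other treatment or allele. HSCs (IL-7Rα- Lin- Sca-1+ c-kit+ and CD34- CD150+ CD48- Flt3-) had 4 libraries per age, and each other fraction had 2 per age, with 20000 sorted cells per library. The MPPs shared the first 4 of these gates and were CD34+ CD150+ CD48- Flt3- (MPP1), CD34+ CD150+ CD48+ Flt3- (MPP2), CD34+ CD150- CD48+ Flt3- (MPP3) or CD34+ CD150- CD48+ Flt3+ (MPP4). Sca-1- c-kit+ cells were split into FcgR+ CD34+ GMPs and FcgR- CD34- MEPs, and CLPs were IL-7Rα+ with low Sca-1 and c-kit. The marrow was described as pooled and sorted in duplicate, so libraries of an age may share animals and p-values measure only the spread between libraries, which may be technical.

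Stem and progenitor cells hold many enhancers open, and lineage choice is known to close those of the other lineages. MEPs, which form red cells and platelets, rely on GATA factors, whereas PU.1, C/EBP and IRF factors act in myeloid and lymphoid cells. RUNX factors act in lymphoid and myeloid cells and in megakaryocytes, and the letters of AP-1 are also the core of the NF-E2 site of the red cell and platelet lineages. Promoters rich in CpG dinucleotides are usually open in all cell types, and distal enhancers are mostly poor in CpG and specific to a lineage.

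The sequences below are the 201 bases around the summit of 4 of the strongest members outside promoters, chosen among the 10 strongest for the letters they hold, of 3 members near the blood genes Meis1, Flt3 and Vav1, and of 1 region called in all 36 libraries for comparison. All were taken from intronic or intergenic regions over 1000 bp from any start with little repeat sequence, and 1 chromosome was left out. The sequences were read from the GRCm38 (mm10) reference, plus strand, 5′ to 3′. Capitals mark letters that match a searched motif on either strand: GAGGAAG for PU.1, TGTGGTT for RUNX, TGANTCA for AP-1, AGATAA for factors of the GATA family, CAGCTG for the E-box, CCGGAAG for ETS, TTGCNNAA for C/EBP and AGGNGGC for CTCF. A match describes letters and not a bound site. The member near Cxcl5 (intergenic, 17125 bp from the nearest start, chr5:90742128-90742328) has the PU.1 and GATA letters. The member near Yae1d1 (intergenic, 17070 bp away, chr13:17975922-17976122) has 3 RUNX and 2 AP-1 matches, with 2 of the RUNX matches directly beside each other. That near 5730480H06Rik (intergenic, 40765 bp away, chr5:48331514-48331714) has PU.1, RUNX and E-box letters, and that near Kctd3 (intergenic, 77622 bp away, chr1:189085359-189085559) has PU.1 and 3 RUNX matches. The intronic member of Meis1 (chr11:18970087-18970287) has 0 CpG, PU.1 letters and 2 GATA matches. The intronic members of Flt3 (chr5:147366487-147366687) and Vav1 (chr17:57290864-57291064) have ETS with RUNX and E-box with AP-1 letters. The comparison region near Ifna13 (intergenic, 3084 bp away, chr4:88641098-88641298) was the strongest all-library region with the CTCF letters within these limits, and also has C/EBP letters.
Cxcl5: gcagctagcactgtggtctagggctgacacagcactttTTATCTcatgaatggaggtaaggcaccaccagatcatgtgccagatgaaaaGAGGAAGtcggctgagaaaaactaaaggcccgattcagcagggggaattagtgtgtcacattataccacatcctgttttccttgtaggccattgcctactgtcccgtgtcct
Yae1d1: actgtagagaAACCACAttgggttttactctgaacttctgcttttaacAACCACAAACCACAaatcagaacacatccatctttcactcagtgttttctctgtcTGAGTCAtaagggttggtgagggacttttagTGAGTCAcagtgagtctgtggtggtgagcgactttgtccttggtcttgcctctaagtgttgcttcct
5730480H06Rik: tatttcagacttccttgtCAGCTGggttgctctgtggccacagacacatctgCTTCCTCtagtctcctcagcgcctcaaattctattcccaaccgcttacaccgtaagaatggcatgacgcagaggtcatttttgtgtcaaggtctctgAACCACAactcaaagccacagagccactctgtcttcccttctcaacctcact
Kctd3: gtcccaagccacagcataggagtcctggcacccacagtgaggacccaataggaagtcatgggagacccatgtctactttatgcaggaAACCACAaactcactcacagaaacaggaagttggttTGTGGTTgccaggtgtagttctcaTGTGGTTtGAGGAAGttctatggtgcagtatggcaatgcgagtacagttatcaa
Meis1: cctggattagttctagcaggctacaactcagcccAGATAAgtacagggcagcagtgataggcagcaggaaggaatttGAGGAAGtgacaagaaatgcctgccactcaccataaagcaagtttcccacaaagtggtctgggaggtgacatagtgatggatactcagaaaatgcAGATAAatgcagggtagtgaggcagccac
Flt3: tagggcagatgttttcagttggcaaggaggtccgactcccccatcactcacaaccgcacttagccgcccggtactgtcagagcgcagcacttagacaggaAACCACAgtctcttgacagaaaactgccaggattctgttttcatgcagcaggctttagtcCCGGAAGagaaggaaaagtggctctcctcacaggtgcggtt
Vav1: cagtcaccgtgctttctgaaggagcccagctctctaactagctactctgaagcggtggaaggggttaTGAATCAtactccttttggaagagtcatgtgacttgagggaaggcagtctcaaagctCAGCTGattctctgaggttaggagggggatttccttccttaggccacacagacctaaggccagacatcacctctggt
Ifna13: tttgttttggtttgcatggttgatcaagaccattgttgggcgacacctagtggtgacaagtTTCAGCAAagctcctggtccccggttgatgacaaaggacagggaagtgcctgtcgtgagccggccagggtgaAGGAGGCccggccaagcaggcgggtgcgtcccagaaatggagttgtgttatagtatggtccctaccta

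The MEP libraries differed from all others in what they called. They held 9581 to 11041 peaks against 27087 to 63288 elsewhere. Per bp, the genome-wide background of the peak caller was alike in all 36 libraries (the lowest had 99.9% of the highest). In reads at a summit it ran from 0.6345 in aged GMP replicate 1 to 0.9186 in aged MEP replicate 2. The shortest peaks of these libraries were 132 and 191 bp. Local background was at the library's genome-wide level in 0.985% to 1.20% of MEP entries and 9.33% to 22.8% of entries elsewhere. Promoters made up 52.6% to 55.0% of the regions called in a MEP library and 16.9% to 32.6% elsewhere. Regions with fewer than 4 CpG at the summit made up 17.1% to 18.2% in MEPs and 32.3% to 52.1% elsewhere. Of the 6 MEP markers, the Epor intron, at the erythropoietin receptor, was called in 4 of 4 MEP libraries, but also in every other library except 1 of CLPs. The Car1 promoter was called in 2 MEP libraries and the region nearest to the Slc4a1 start in 1, and both in no other fraction. The region nearest to the Gata1 start was called in 1 MEP and 3 MPP2 libraries, that of Klf1 in 1 MEP library and all 32 others, and the Gfi1b promoter in 0 MEP libraries but in some of each other fraction. Of the 5 GMP markers, the promoters of Mpo, Elane and Ctsg, all granule enzymes, were called in 4 of 4 GMP libraries and that of Cebpe in 3, and in at most 2 other libraries each. The region nearest to the start of Prtn3 was called in all non-MEP libraries except 1 of CLPs. Of the 5 HSC markers, the Hlf promoter was called in all 32 non-MEP libraries and 1 MEP library, the Meis1 promoter in all of them but 1 of CLPs, the Procr 5′ UTR in 4 of 8 HSC, 3 GMP and 2 MPP3 libraries, the Mecom promoter in 0 of 8 HSC libraries but in 1 MPP2, 2 MPP3, 3 MPP4, 3 GMP and 2 CLP libraries, and the Fgd5 promoter in 1 MPP1 library alone. Of the 5 CLP markers, the Il7r promoter was called in 4 of 4 CLP libraries but also in all MPP4 and GMP libraries, the Ebf1 promoter and Dntt intron in 3 of 4 and in most libraries of each other fraction except MEPs, and Rag1 and Cd79a had no region.

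Outside MEPs, the members were weaker than regions called everywhere, by less outside promoters than at them. Strength is the fold enrichment of reads at the summit over the local background. The median over members was 9.34 to 16.9 in the 32 libraries, and the median over the 5335 regions called in all 36 was 11.6 to 20.3 in the same libraries. Members were lower in all 32, by 0.09 to 0.42 on the log2 scale (mean -0.24, SD 0.0867). The mean was -0.55 at promoters and -0.11 outside them, and members stood 18.1 percentile points lower within a library. In the MEP libraries the regions called in all 36 had medians of only 7.52 to 7.77, below every non-MEP library. Pooled over promoters and other regions, those just outside the rule were weaker than members: the median over regions was 9.53 for the 1219 regions called in 31 of 32 and 0 of 4 MEP libraries and 10.3 for the 765 called in 32 of 32 and 1 of 4, against 11.4 for members. Of the 765, 48.1% lay at promoters, against 16.6% of members, and at promoters they were the stronger (9.86 against 9.55), with 10.7 against 11.9 outside promoters. The lowest -log10 q of a member over its 32 libraries had a median of 8.94 and came down to 3.01, at the caller's limit, and was at least 10 in 1350 members (42.5%).

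The share of regions that were members fell steeply with strength at promoters. Outside them it showed no steady fall and was lowest in the strongest decile. Among all regions called in the 32 libraries, ranked into deciles by their mean strength, 29.7% of the weakest promoters were members and 0.985% of the strongest. Outside promoters the share was 46.9% in the weakest decile, 54.2% in the ninth and 41.2% in the strongest. CpG content separated these further. Regions outside promoters with fewer than 4 CpG were members in 75% of the weakest decile, 84.7% of the ninth and 53.7% of the strongest, whereas those with 16 or more CpG fell from 35.1% to 1.41%, much as promoters did. In the CpG-poor group, 46.2% of the 182 regions called in all 36 lay mostly in annotated repeats, against 3.26% of the 1256 members. The CpG-poor regions were called in all 4 MEP libraries in 14.3% of the weakest decile, 8.24% of the ninth and 39.6% of the strongest, and the CpG-rich ones in 22.2%, 90.3% and 95.8%.

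**Figure D1:**
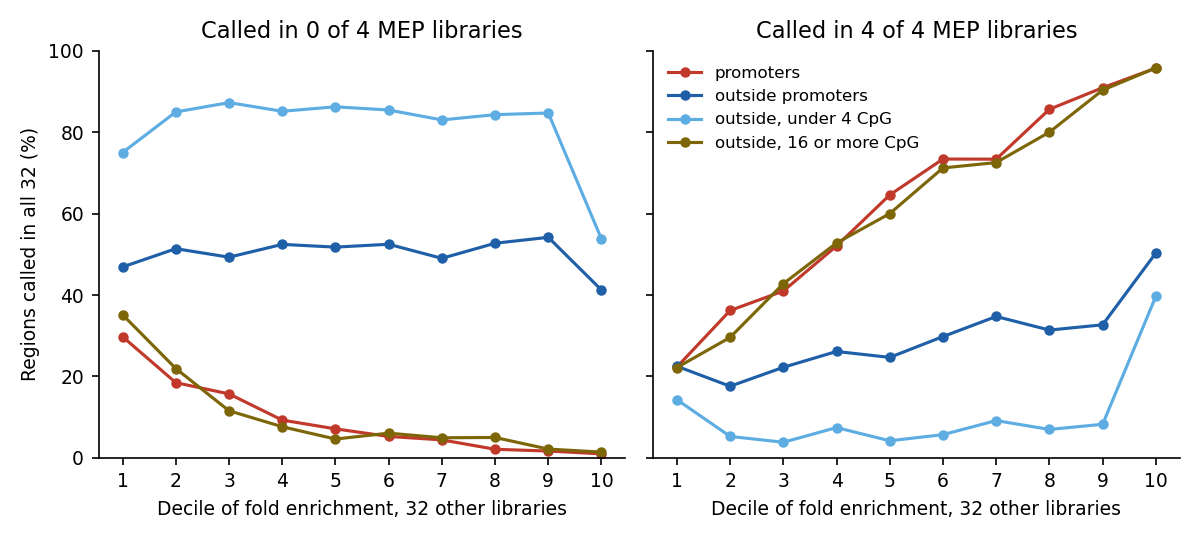
Share of the 11159 regions called in all 32 non-MEP libraries (y axis, percent) that were called in 0 of 4 MEP libraries (left, the members) or in 4 of 4 (right), by decile of mean fold enrichment in the 32 libraries (x axis). Promoters and CpG-rich regions fall to near 0 on the left, while CpG-poor regions outside promoters run from 75% in the weakest decile to 84.7% in the ninth and 53.7% in the strongest.

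Reads at the summit, recovered from the fold enrichment and p-value of each entry, bear on whether a peak of the members' size could have been called in MEPs. The median pileup over members was 25, 36 and 57 reads (lowest, median and highest of 32 libraries). At regions called in all 36 it was 44, 55.5 and 106 in those libraries and 24, 25.5 and 27 in the 4 MEP libraries. MEP pileup at a shared region was a median of 0.467 times that elsewhere (quartiles 0.361 and 0.610), and the local background was 0.744 times. The smallest pileup called at 2 times the genome-wide background was 11 reads in each MEP library and 8, 10 and 10 elsewhere (lowest, median and highest of 32), and at 1, 3 and 4 times it was 8, 13 and 15 reads in MEPs, as in the highest of the others. The lowest -log10 p listed was taken for each MEP library, and the highest of these 4 values, 5.84, served as a limit. With pileup and background scaled by those median ratios, 2994 of 3175 members (94.3%) would pass that limit. With the lower quartile of the pileup ratio it would be 2279 (71.8%), comprising 75.9% of members outside promoters and 51.1% of those at promoters. With that ratio and the background left as it was, it would be 54.9%. These ratios come from regions that MEPs did call, so they may be too high for others, and no MEP value exists for a member. The share of members that lost accessibility in MEPs and the share with a low MEP signal under the limit cannot be told apart from peak lists.

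**Figure D2:**
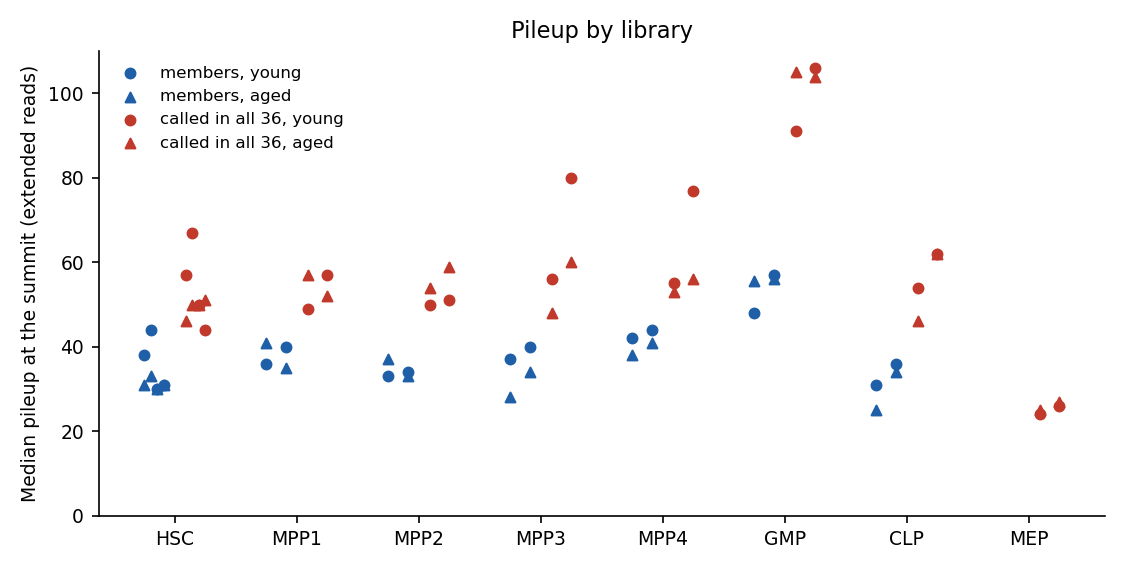
Median number of extended reads at the summit (y axis) in each library, by fraction (x axis), over members (blue) and over regions called in all 36 (red); circles are young and triangles aged libraries. The MEP libraries sit at 24 to 27 for regions called in all 36, below the 44 to 106 of the other libraries and near the low end of the 25 to 57 range of members elsewhere.

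Members were mostly distal. Introns held 1244 (39.2%) and intergenic sequence 1196 (37.7%). Promoters, within 1000 bp before or 100 bp after a start, held 528 (16.6%). That promoter share was 28.9% under a stricter limit (-log10 q 10 or more) and 3.52% with equal numbers of peaks per library. Exons held 91, 5′ UTRs 71 and 3′ UTRs 45. Of the regions called in all 36, 3814 (71.5%) lay at promoters, and of the whole catalogue 12.1% did. Members had a median width of 607 bp against 810 bp, and a median of 4 CpG in 201 bp against 17. Outside promoters the medians were 4 against 16, but the regions called in all 36 there lay close to starts, with a median distance of 372 bp to the nearest gene's start and 69.8% within 1000 bp of some annotated start, against 22393 bp and 17.8% for members. Over 1000 bp from any start, the medians were 3 CpG in 2174 members and 6 in 431 regions called in all 36. The members' share of promoters was thus nearer to that of the catalogue than to that of regions called in every library, and the same promoter-rich make-up was seen in the MEP libraries as a whole, with its part in the members' make-up not tested.

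Letters of PU.1, RUNX and AP-1 were more frequent in members outside promoters than in regions called in all 36 outside promoters. PU.1 letters were in 28.7% of 2645 members with sequence, in 10.1% of 1493 regions called in all 36 and in 20.6% of all 92121 regions outside promoters. RUNX letters were in 19.4%, 4.02% and 12.3%, and AP-1 letters in 16.5%, 3.55% and 12.3%. IRF letters GAAANNGAA, of interferon-response factors, were in 9.45%, 2.95% and 8.72%, and E-box letters in 18.9%, 10.6% and 15.1%. At least 1 of these 5 was in 64.8% of members, 26.8% of regions called in all 36 and 53.1% of all regions, and 2 or more were in 23.8%, 4.29% and 14.1%.

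Letters of CTCF, SP/KLF, NFY and ETS were less frequent in members than in regions called in all 36, whereas GATA and C/EBP letters were more frequent than there and less frequent than in the catalogue. CTCF letters, of the factor that anchors chromatin loops, were in 18.5% of members, 29.8% of regions called in all 36 and 16% of all regions outside promoters. SP/KLF letters CCCCGCCC were in 5.41%, 19.8% and 3.09%, NFY letters CCAATCA in 2.12%, 7.90% and 2.65%, and ETS letters in 4.61%, 10.5% and 2.47%. GATA letters were in 6.84%, 3.35% and 11.2%, and C/EBP letters in 9.38%, 4.29% and 14.1%. Both strands were searched. The PU.1 and ETS letters share GGAAG but differ before it, so 1 stretch cannot match both. Among regions with fewer than 4 CpG, PU.1 letters were in 33.8% of members and 9.34% of regions called in all 36, RUNX letters in 24.0% and 8.24%, AP-1 letters in 18.3% and 6.04%, IRF letters in 10.2% and 4.40% and E-box letters in 18.2% and 10.99%. C/EBP and NFY letters kept their direction too, with 9.95% against 6.04% and 2.23% against 4.95%. The other 4 turned: CTCF letters were in 14.6% of these members and 8.79% of these regions called in all 36, SP/KLF letters in 2.07% and 0%, ETS letters in 2.39% and 1.10%, and GATA letters in 8.68% and 13.7%. The latter set held 182 regions, and many of them were repeats, as given above. Among regions over 1000 bp from any start, PU.1 letters were in 30.2% of members and 11.1% of regions called in all 36, RUNX letters in 20.7% and 9.28%, AP-1 letters in 17.9% and 6.26%, SP/KLF letters in 3.96% and 12.1%, CTCF letters in 16.7% and 19.03% and ETS letters in 4.37% and 4.87%, and GATA letters turned (7.13% and 8.12%). The 281 regions called in all 4 MEP libraries and no other library had GATA letters in 61.2% and PU.1 letters in 4.27%. Since CpG content, distance to starts, repeats and strength differ between these sets, the shares are a description.

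**Figure D3:**
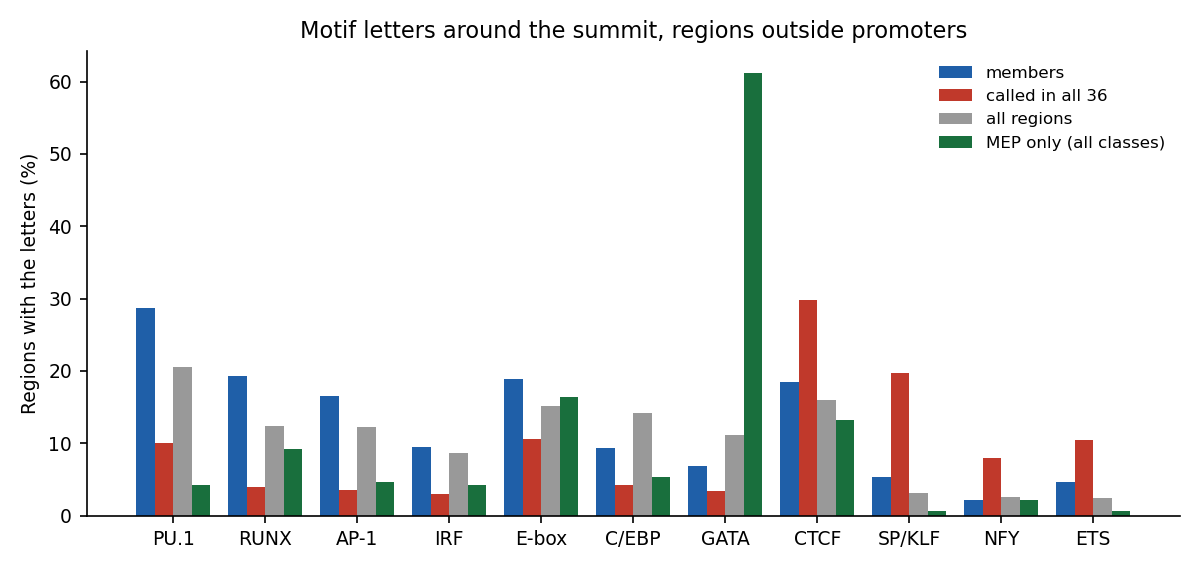
Share of regions (y axis, percent) with the letters of each motif (x axis) within 201 bp at the summit, for members, regions called in all 36 and all regions outside promoters, and for regions called only in MEPs. Members are highest of the first 3 sets for PU.1, RUNX, AP-1, IRF and E-box letters, regions called in all 36 for CTCF, SP/KLF, NFY and ETS, and the MEP-only regions stand at 61.2% for GATA.

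Of the 10 strongest members outside promoters, 2 lay in introns. That near Cxcl5, a chemokine that attracts neutrophils, led them. Its fold enrichment was 26, 30.3 and 34.2 in HSCs (lowest, median and highest of 8). It was 32.96 and 26.6 in young and 30.05 and 25.1 in aged MPP1s, 27.6 and 29.1 in young and 32.3 and 25.8 in aged MPP2s. MPP3s had 26.1 and 30.1 in young and 27.7 and 26.3 in aged libraries, and MPP4s 32.3 and 32.7 and then 23.5 and 31.1. It was 39.1 and 37.3 in young and 41.7 and 40.3 in aged GMPs, and 26.8, 25.6, 21.4 and 27.4 in CLPs, young first. All 4 GMP libraries lay above all others and 1 aged CLP library lay lowest. With each library centred on its own median region, however, this member was lower in GMPs than in HSCs by limma (log2 -0.21, SE 0.0724, adjusted p = 0.014), since centring takes off the higher GMP level that most regions shared.

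The other 9 had medians over libraries of 20.9 to 24.9. The member near Yae1d1 ranged from 19.4 to 32.2 with a median of 24.0, and that near 5730480H06Rik from 18 to 30.9 with a median of 24.9. Intronic members of Adcy2, an adenylate cyclase, and Cacnb2, a calcium channel subunit, had medians of 23.0 and 23.4. Those near Rfpl4, Lbr, a nuclear membrane receptor for lamin B, and Lrig1, which restrains growth factor receptors, had medians of 23.3, 23.1 and 23.2. Those near Ube2h, a ubiquitin-conjugating enzyme, and Kctd3 both had 20.9. The region near Ifna13 printed for comparison had a median of 22.5 elsewhere and 11.2 to 17.3 in MEPs, where its calls were part of how it was chosen.

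Members at promoters were weaker. The 10 strongest included that of Ptgs2, which encodes the inducible cyclooxygenase of prostaglandin synthesis. Before centring it had 13.6, 16.2 and 18.5 in HSCs and 19.2, 24.0, 25.4 and 24.4 in GMPs, all above HSCs. The median over all regions called in the 32 libraries was also higher in GMPs, at 16.5 to 18.4 against 10.6 to 12.6 in HSCs. The CLP values of the Ptgs2 promoter, 13.2, 14.1, 16.9 and 14.1, overlapped those of HSCs. The promoter of Il1r1, the interleukin-1 receptor, ranged from 9.72 to 26.2 (median 18.9), and that of Lrrk2, a kinase, from 11.2 to 25.9 (18.2). Those of Adam3, Dhrs9, Dusp22, Bnc2, Ctla2b, Lgmn and Pde7b had medians of 15.9 to 20.0. The 10 had 3 to 20 CpG in 201 bp.

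Regions were given the gene whose start lay nearest, and its regulation by the region was not measured. Members were assigned to 2508 genes, of which 503 had at least 2, 122 at least 3 and 8 at least 5. Atp10a, a lipid flippase, had 6 members of the 8 regions called in all 32 libraries, with medians of 7.81 to 13.9, and Fam49a 6 of 6, with medians of 7.60 to 20.2. Dnmt3a, the de novo DNA methyltransferase often mutated in clonal hematopoiesis, had 5 of 7, of which 3 lay within the neighbouring gene Dtnb. Pik3r1, the regulatory subunit of phosphoinositide 3-kinase, had 5 of 6, and Dbx1 5 of 5, of which 4 lay in introns of Nav2. Rgs3, Ski and Syne3 also had 5 members each. Of the distal members whose gene had a promoter region in the catalogue, 574 of 1753 (32.7%) had it called in all 4 MEP libraries and 45.4% in none. The figures were 36% and 41.4% over all genes with a promoter region, so both shares lay within 5 percentage points of those over all genes.

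Listed genes of lymphoid and myeloid cells held many members and those of red cells and platelets held none. The lists were chosen with earlier results of these data known and are described by counts. Of 28 regions near lymphoid and myeloid genes that were called in all 32 libraries, 23 were members. Over all genes, 28.5% of the regions called in all 32 were members, with 8.99% at promoters and 50.1% outside them. Stem cell genes held 6 of 9, genes of the sorting markers 5 of 9, adhesion and cytoskeleton genes 6 of 10, and antigen presentation and inflammation genes 2 of 17. Erythroid and megakaryocytic genes held 0 of 7, and 5 of their 7 were called in all 36: those near Tal1, Nfe2, Zfpm1, Vwf and Tfrc. The counts are small and the members share genes. The lists were not split into promoters and other regions, so the part of region class was not tested.

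Of the stem cell genes, Meis1, a homeobox factor of HSC maintenance, had 2 intronic members and no MEP call at its promoter. The stronger Meis1 member, whose sequence is given above, had 15.4, 17.4 and 20.1 in HSCs, 17.9, 17.98, 19.6 and 18.8 in MPP1s and 16.5, 18.7, 17.6 and 15.1 in MPP2s. MPP3s had 17.7, 17.4, 18.5 and 17.6 and MPP4s 18.7, 17.1, 17.2 and 17.7. It had 19.6, 19.4, 22.9 and 21.4 in GMPs and 12.8, 13.97, 13.7 and 16.8 in CLPs. It was above the median member in each of these GMP and CLP libraries (medians of 14.98 to 16.9 and 9.34 to 11.2), and 3 of the 4 CLP libraries lay below all others. Mecom, a zinc finger factor of HSC self-renewal, had 2 members with medians of 7.02 and 8.37, and the Mycn promoter had 9.93. The Fgd5 member, near a gene active in HSCs and endothelium, is described with CLPs below.

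Of the lymphoid and myeloid genes, 13 of 19 had a member. Spi1, which encodes PU.1, had a member at its 5′ UTR, and Flt3, the cytokine receptor of lymphoid priming, had 1 at its 5′ UTR (range 11.3 to 20.4, median 14.9) and 1 in an intron (6.56 to 17.7, median 13.1). Mef2c, a factor of lymphoid and myeloid fate, had 3, of which an intronic one was among the firmest calls (range 16.7 to 29.4, median 20.7, lowest -log10 q 113). Ptprc, which encodes CD45, had 3, with medians of 10.8 to 18.8, and Bcl11a, a factor of B cell development and of globin switching, had 3. Cebpa, the master factor of granulocytes, and Ikzf1, which encodes Ikaros, had members at their promoters, with medians of 9.60 and 7.74. Cebpb had 3, Ikzf2 2, and Satb1, Csf1r, Gfi1 and Runx2 1 each. Dntt, Il7r, Notch1, Csf3r and Irf8 had no region called in all 32 libraries and so no member.

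Of the sorting markers, the Cd34 promoter was a member. Its fold enrichment was 6.03, 7.84 and 9.0 in the CD34- HSCs, 7.17, 5.87, 7.04 and 7.3 in the CD34+ GMPs and 8.12, 6.73, 7.27 and 6.81 in CLPs. The groups overlapped before centring, while the median over all regions called in the 32 libraries was 16.5 to 18.4 in GMPs and 10.6 to 12.6 in HSCs. HSCs and GMPs were gated on opposite sides of CD34, but the rule required the peak in both. Of 3 Cd34 regions called in all 32 libraries, 2 were called in all 36. Kit, the stem cell factor receptor on which MEPs were gated as positive, had a distal member 155909 bp away, while its promoter was called in 3 MEP libraries. Slamf1, which encodes CD150, had 1 member. Of the adhesion genes, Vav1, a guanine nucleotide exchange factor of blood cells, had a member at its promoter (median 6.78) and 1 in an intron (median 13). Cxcr4, the homing receptor for CXCL12, and the integrins Itga4 and Itgb1 had 1 each, with medians of 6.86, 10.3 and 12.1, as did Selplg, which encodes the P-selectin ligand, with 13.1.

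**Figure D4:**
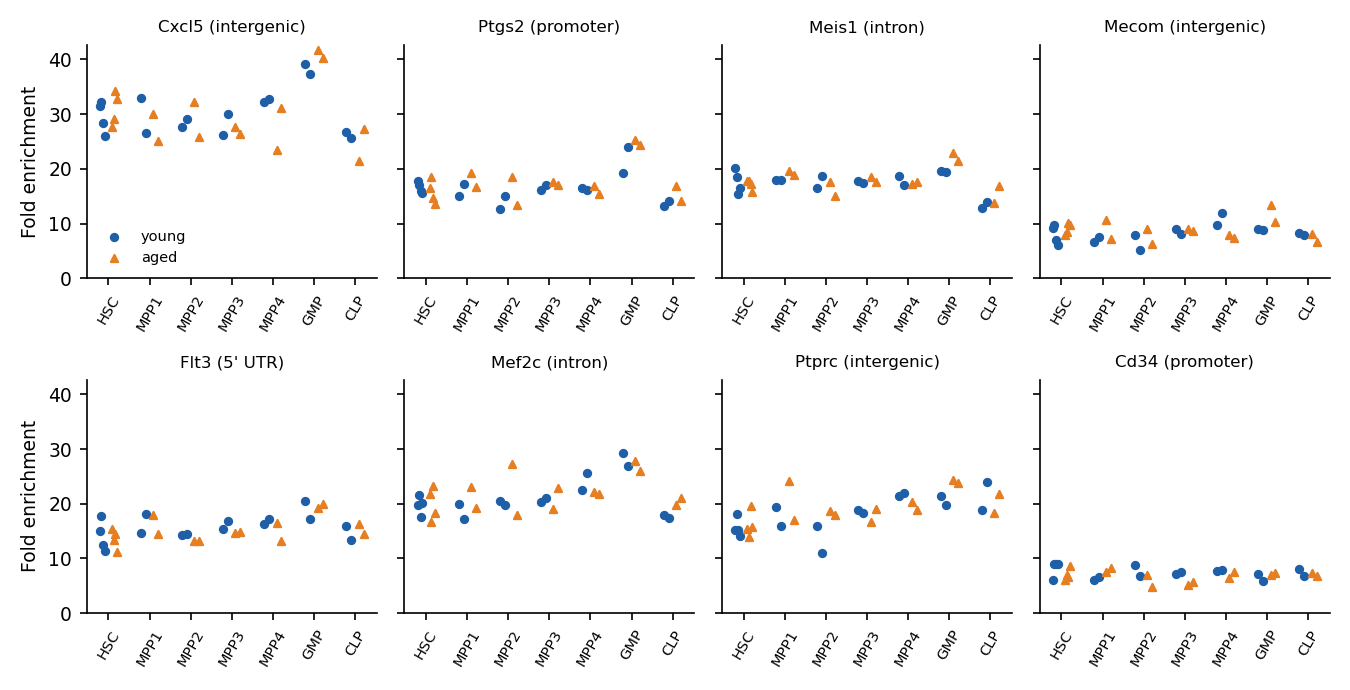
Fold enrichment (y axis) of 8 members in each of the 32 non-MEP libraries, by fraction (x axis); circles are young and triangles aged libraries. The Cxcl5 member lies between 21.4 and 41.7 with GMPs highest, and the Cd34 promoter between 4.84 and 9.0 with overlapping fractions.

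Strength was compared between fractions and ages over the 11159 regions called in all 32 libraries, with limma on log2 fold enrichment centred per library and p-values adjusted over all of them. These comparisons use no MEP library. Log2 differences are after centring, and values per library are before it. A region lost in any other fraction could not be a member or be tested, so differences are among called regions. The median span between the highest and lowest fraction mean was 1.60-fold for members and 1.35-fold for regions called in all 36, and GMP was the highest fraction for 776 members (24.4%, against 27.8% of all tested regions) and the lowest for 1115 (35.1% against 35.01%). MPP1 was the highest for 17.1% of members against 10.9% of tested regions, HSC for 17.1% against 16.4%, CLP for 16.8% against 20.7%, MPP4 for 12.98% against 7.38%, MPP2 for 8.44% against 8.69% and MPP3 for 3.21% against 8.07%. No contrast passed for 824 members (25.95%), against 38.2% of all tested regions.

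With age, 3 of 3175 members passed the test. In aged libraries 1 member was higher and 2 were lower (0.0315% and 0.0630% of members), against 0.00896% and 0.0179% of all tested regions, so all 3 regions that passed were members. These counts were sensitive to single libraries: leaving out 1 library gave 1 to 2 members higher and 1 to 4 lower. The centring and the summary over entries moved them too. At an unadjusted p under 0.05, 116 members were higher and 191 lower, of 350 and 373 among all tested regions. The member near Lrfn5 (chr12:61994185-61994894, 470592 bp from the start) rose by 0.52 (SE 0.0825, adjusted p = 0.0019). In HSCs it was 8.04, 11.3, 6.2 and 6.95 in young and 13.7, 11.5, 21.6 and 14.97 in aged libraries, which did not overlap. Its aged values were above the young in MPP1, MPP2, MPP3, MPP4 and GMP too, and overlapped in CLP, with 12.1 and 11.5 in young against 11.6 and 17.1 in aged. The member assigned to Eva1b, in an intron of Stk40, fell by 0.44 (SE 0.0689, adjusted p = 0.0019), with 19.9 and 18.2 in young and 9.29 and 9.24 in aged MPP2s and overlap in HSCs. That near Slc12a2, a chloride cotransporter, fell by 0.33 (SE 0.0624, adjusted p = 0.026). Of all members, 99.97% had an estimated log2 change with age within 0.5 of 0.

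Between MPP2s, the megakaryocyte- and erythroid-biased MPPs, and HSCs, 140 members were higher and 140 lower (4.41% each), where 2.41% and 2.17% of all tested regions were. Of the regions called in all 36, 1.71% and 1.09% were. The member near Zdhhc21 rose most, from 4.55, 6.05 and 8.6 in HSCs to 13.2, 13.1, 18.8 and 13.5 in MPP2s without overlap (log2 1.21, SE 0.14, adjusted p = 5.2e-06). It holds RUNX and GATA letters. Members near Bcas1 and Txndc2 and in introns of Lima1, an actin-binding protein, and Trio rose by 0.71 to 0.91. Members near Calm4 and Mier2 and in introns of Ksr1, a scaffold of the MAP kinase pathway, Ago2, the Argonaute of RNA interference, and Nsmce2 (assigned to Trib1) fell by 0.71 to 0.89. These counts were sensitive to single libraries. Without aged MPP2 replicate 1, 60 members were higher, without aged MPP2 replicate 2, 69 were lower, and without young MPP2 replicate 1 or replicate 2, 79 and 82 were higher, and 84 were lower without the former.

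Against the mean of MPP3s and MPP4s, the myeloid-biased and lymphoid-primed MPPs, 21 members were higher in MPP2s (0.661% of members) and 33 lower (1.04%), where 0.403% and 0.358% of all tested regions were. Without centring 2 members were higher and 42 lower, and with the mean over a region's entries 4 and 13. GATA letters were in 42.9% of the 21 higher and in 0% of the 33 lower, against 6.05% of all members, and PU.1 letters in 33.3% and 51.5%, against 26.3%. These sets are small, move with the settings and were given no test. The member near Cited2, a transcriptional coregulator of HSC quiescence, was higher by 0.90 (SE 0.14, adjusted p = 0.00104), with 18.1, 21.5, 16.5 and 14.4 in MPP2s, 14.6, 13.9, 10.1 and 13.02 in MPP3s and 7.93, 7.66, 8.93 and 6.24 in MPP4s. MPP4s did not overlap MPP2s, and MPP3s did. Members assigned to Chrm3, Flrt3, Col4a1 and Nepro were higher by 0.66 to 0.74. The intronic member of Zfp800 was lower by 0.83 (SE 0.13, adjusted p = 0.0013), with 7.04, 11.1, 6.59 and 4.47 in MPP2s, 12.1, 10.3, 9.76 and 13.9 in MPP3s and 15.9, 16.6, 14.5 and 12.4 in MPP4s. Here too MPP3s overlapped MPP2s and MPP4s did not. Those of Il15, a cytokine of lymphoid cells, Ston2 and Tnni2, and that near Trim25, were lower by 0.69 to 0.79. Without aged MPP2 replicate 1, 1 member was higher. Without young MPP2 replicate 1 or 2 it was 3, without young MPP3 replicate 2 or young MPP4 replicate 2 it was 8 and 12, and without aged MPP3 replicate 2 or aged MPP4 replicate 1 it was 7 and 9. For members that were lower, leaving out the same young MPP2 libraries gave 17 and 12, aged MPP2 replicate 2 gave 19, aged MPP3 replicate 2 gave 14 and aged MPP4 replicate 1 gave 20.

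Between GMPs and HSCs, 765 members were higher (24.1%) and 1095 lower (34.5%), near the 22.2% and 29.7% of all tested regions. The split depends on the scaling: without centring, 2044 members were higher and 254 lower, of 8141 and 486 among all tested regions. The log2 differences are after centring, which takes off the higher GMP level, and the values per library are before it. Members near Ets1 and Lrpprc were lower on both scales. Near Ets1, a lymphoid transcription factor, values fell from 14.7, 15.9 and 18.95 in HSCs to 4.03, 4.66, 4.03 and 5.74 in GMPs (log2 -2.46, SE 0.13, adjusted p = 2.6e-16). Near Lrpprc, a mitochondrial RNA-binding protein, they fell from 24.9, 28.7 and 31.4 to 9.59, 12.1, 10.8 and 13.3 (log2 -1.93, SE 0.0788). The Pkia promoter and members near Tcf7l1 and Ssr3 fell by 1.84, 1.99 and 1.45. The Bcl11a member at chr11:24184864-24185391 rose from 6.28, 9.01 and 11.8 to 34.4, 40.4, 34.6 and 36.2 (log2 1.5, SE 0.16, adjusted p = 1.7e-09), and the intronic member of Pde10a, a phosphodiesterase, from 5.35, 6.73 and 9.65 to 31.6, 31.7, 32.3 and 33.4 (log2 1.60, SE 0.15). Neither overlapped HSCs. The strongest rise by adjusted p was on an unplaced scaffold (log2 2.11, SE 0.11), followed by members assigned to Nkain3, Prdx6b and Txndc2. Of listed genes, the Ikzf1 promoter rose by 0.97, the Tlr4 5′ UTR, at the receptor for lipopolysaccharide, by 0.82 and the Spi1 5′ UTR by 0.69, from 6.88, 9.26 and 12.9 to 20.2, 23.5, 24.6 and 23.6. C/EBP letters were in 12.9% of the members higher in GMPs and 6.21% of those lower, against 8.88% of all members.

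Between CLPs and HSCs, 546 members were higher (17.2%) and 765 lower (24.1%), where 12.7% and 13.5% of all tested regions were and 12.1% and 6.88% of the regions called in all 36. The median log2 difference after centring was -0.070 over members, 0.054 over regions called in all 36 and 0.013 over all tested regions. These shares were not split into promoters and other regions. The member near Rasgrf1, a Ras exchange factor, fell from 18.7, 20.3 and 22.4 in HSCs to 8.18, 6.45, 6.34 and 6.15 in CLPs (log2 -1.63, SE 0.11, adjusted p = 3.0e-12). Members near Wipf1, a partner of the WASP actin regulator, and Ktn1 and in introns of Ahnak and Plcb1, a phospholipase, fell by 1.41 to 1.56. The Fgd5 member fell from 11.9, 14.8 and 21.5 to 5.67, 7.19, 6.0 and 7.83, without overlap (log2 -1.20, SE 0.13, adjusted p = 1.4e-08), and the intronic Nfkb1 member, at a subunit of NF-kappaB, by 1.00. Members near Bcas1, Nxt1, Txndc2 and Tmem17 and in an intron of Impa2 rose by 1.08 to 1.39. The second Bcl11a member rose by 1.18 and an intronic Mef2c member by 1.07. AP-1 letters were in 23.9% of the members lower in CLPs and 9.71% of those higher, against 14.6% of all members.

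**Figure D5:**
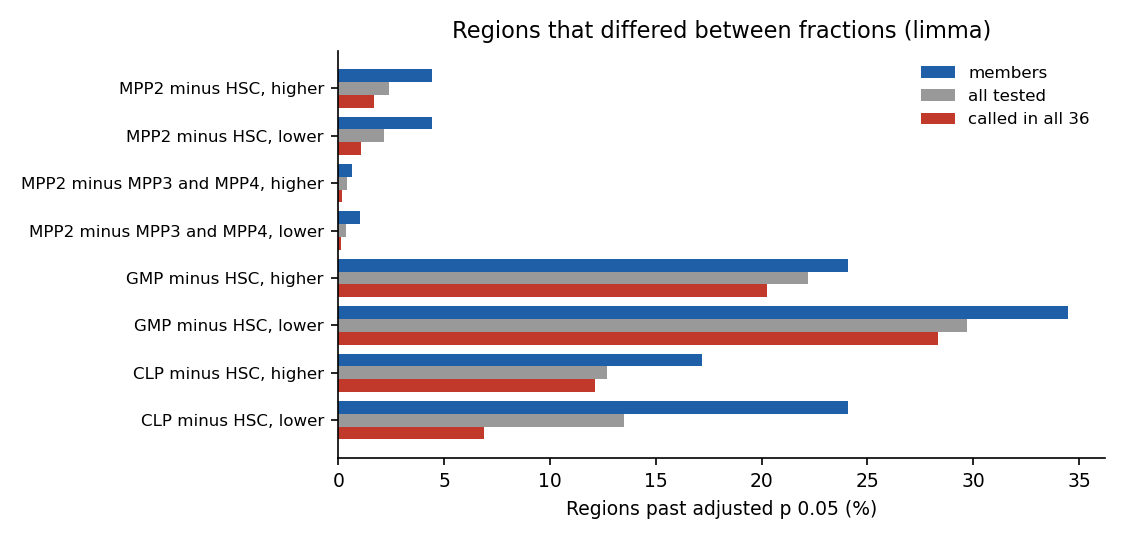
Share of regions (x axis, percent) past an adjusted p of 0.05 in each direction of 4 contrasts between fractions (y axis), for members, all 11159 tested regions and regions called in all 36. The sets are farthest apart among regions lower in CLPs, at 24.1%, 13.5% and 6.88%.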

How the data were processed

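ATAC-seq libraries of 20000 sorted cells were size-selected (240 to 360 bp) and sequenced as single reads of 60 bp. Per the study's methods, the authors aligned reads to mm10 with Bowtie2, subsampled every library to equal reads and called peaks per library with MACS2 (version 2.2.6, no model, q limit 0.001). The deposited peak lists give fold enrichment (a ratio over local background), the -log10 p-value and -log10 q-value and a score, and hold no read counts. The deposited score was not used here beyond checking its unit.

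Peaks overlapping by at least 1 bp were merged, and a region's strength in a library was the fold enrichment of its highest summit. Pileup and background were solved from fold enrichment and p. For 98.7% to 99.8% of entries per library a solution was found, and the genome-wide background, 4.81 reads per kb, differed by 0.112% between libraries. Reads at a summit, which limit the precision of a value, differed between libraries. Regions were annotated with GENCODE vM21 (GRCm38). Motif letters were searched within 100 bp of the median summit, in sequence of the same build.

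log2 fold enrichment, centred on each library's median region, was fitted with limma (version 3.58.1) on fraction and age, after the code was tested on simulated data; p-values were adjusted after Benjamini and Hochberg (threshold 0.05). The study's count model was not used, as lists hold no counts. Python 3.11.15, NumPy 2.4.6, pandas 2.3.3, SciPy 1.17.1, pysam 0.24.0 and R 4.3.3 were used. Named regions were the 10 strongest members at and outside promoters (by their lowest percentile), members of the listed genes, the 5 with the smallest adjusted p per direction of each contrast and those of the 5 genes with most members, ties taken in alphabetical order. The members, lists and tests were chosen with earlier results of these data known. Alternatives changed the peak limit, the number of peaks, the overlap, the promoter width, the summary, the centring and the libraries. A listed gene is not reported here.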

Additional observations from a re-analysis of the deposited data

Results flagged for a closer look

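Young HSC replicate 3 stood apart within its group. Its median over members minus that over regions called in all 36 was -0.30 (log2 fold enrichment), and the gap to the nearest of the other 3 young HSC libraries, at -0.17 to -0.19, was 0.909 of the group's range, above the 95% critical value of Dixon's test for 4 libraries. Of 12 groups of 4 values examined, this was the only such value. Chance flags about 1 in 20 groups, or 0.6 values over the 12.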

How the results depend on the processing

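The number of members, 3175, depended on how a call was made. Under a stricter limit (-log10 q 10 or more) it was 2206, of which 1350 overlapped members and 160 regions called in all 36. With the 9581 strongest peaks of every library it was 227, of which 222 overlapped members and 0 regions called in all 36, and with a peak covering at least 50% of the region it was 829. Without 1 library each it was 3174 to 3487. The log2 difference in strength was -0.14 with the mean over entries, -0.55 at promoters and -0.11 outside promoters, and -0.25 to -0.24 without 1 library each. The promoter share of 16.6% became 20.7% with promoters of 500 bp either side, 28.9% with the stricter limit and 3.52% with equal numbers of peaks. The motif differences from regions called in all 36 kept their sign within 50 bp of the summit and under the limit and equal numbers of peaks, the latter 2 chosen for motifs after seeing the data. Among regions with fewer than 4 CpG, also chosen after seeing the data, 4 of the 11 turned: members minus regions called in all 36 was 5.86 percentage points for CTCF, 2.07 for SP/KLF, 1.29 for ETS and -5.06 for GATA letters, against -11.3, -14.4, -5.90 and 3.49 over all CpG contents. Over 1000 bp from any start, chosen likewise, GATA turned (-0.99). The cause was not tested.

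Counts of members past the limma threshold moved as follows. For age, the mean over entries gave 2 higher and 1 lower, no centring 1 lower, and leaving out 1 library 1 to 2 higher and 1 to 4 lower. For MPP2 against HSC, without HSC replicates 3 and 4 the counts were 76 higher and 75 lower, with no centring 84 lower, and without 1 library 60 to 169 higher and 69 to 152 lower. For MPP2 against MPP3 and MPP4 they were 32 and 56 without those HSC libraries, 2 higher with no centring, 4 and 13 with the mean over entries, and 1 to 29 and 12 to 36 without 1 library. For GMP they were 2044 and 254 with no centring, and 638 to 777 and 939 to 1102 without 1 library. For CLP they were 426 to 553 and 599 to 769 without 1 library. The cause of these shifts was not tested. With the replicate number as a replicate block, MPP2 against HSC gave 65 and 72, and MPP2 against MPP3 and MPP4 33 and 50. Deviations of same-numbered libraries correlated above 0.1 in 9 of 66 pairs of groups (median r 0.00847, highest 0.303), so the numbers did not pair the libraries in most of them.

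Peak lists show a MEP value only where a peak passed the limit, so no MEP level or interval can be given for a member, and at a MEP summit the medians were near 25.5 reads.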

Other observations

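The regions that all 4 MEP libraries called numbered 6389, and 281 of them were called in no other library. Of the 281, 270 lay outside promoters, with a median of 2 CpG in 201 bp and a median fold enrichment in MEPs of 6.77. E-box letters were in 16.4% of them, CTCF letters in 13.2%, RUNX letters in 9.25% and AP-1 letters in 4.63%. MEP libraries thus held CpG-poor peaks outside promoters of their own. Their fold enrichment was near the median of all regions called in a MEP library (6.74 to 6.87), which was below the 8.01 to 10.8 elsewhere.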
